A study of Mus musculus with 2 samples.

Results

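The giant cytoskeletal linker genes examined here were 10 genes of 4 families, the plakins Macf1, Dst and Plec, the nesprins Syne1 and Syne2, the ankyrins Ank1, Ank2 and Ank3, and the spectrins Sptbn1 and Sptan1. They were followed in Prrc2a RIP-seq, in which RNA bound by the protein Prrc2a is pulled down with an antibody and sequenced. The tissue was whole brain, taken from male mice of strain C57BL/6J, wild type in genotype and aged 4 weeks, in 2 replicates of 1 condition with no knockout or treated group, and the protocol speaks of 3 brains without assigning them to replicates. Each replicate was given as a list of peaks, that is, stretches of the genome with more reads than a control library, each with a fold enrichment over that control. The genes were selected on these same lists, with their peaks already known, by counting every peak that overlapped an exon of a listed gene by at least 1 bp (GENCODE M21 on GRCm38/mm10). A replicate 1 peak was called shared when it overlapped a replicate 2 peak by at least 1 bp. Protein-coding exons held 11934 peaks in replicate 1, and by this rule 98 of them belonged to the linker genes (0.821%), as did 137 of the 16084 replicate 2 peaks (0.852%) and 63 of the 7317 shared peaks (0.861%). The presence and number of shared peaks therefore describe the choice and carry no test.

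At the edges of the rule, the smallest exonic overlap that was counted was 16 bp in replicate 1 (Macf1, fold enrichment 1.73) and 5 bp in replicate 2 (Ank3, 3.05). The nearest peaks left out lay 16 bp from an exon of Dst in replicate 1 (1.71) and 550 bp from an exon of Ank3 in replicate 2 (3.35). Among shared pairs the smallest overlap was 138 bp (Syne2), and the nearest pair left unshared was 25 bp apart (Dst).

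Plakins, nesprins, ankyrins and spectrins are among the longest proteins of animal cells. Plakins tie actin, microtubules and intermediate filaments to each other and to junctions, nesprins span the outer nuclear membrane and join the cytoskeleton to the nucleus, and ankyrins fasten ion channels and adhesion molecules to the spectrin lattice under the plasma membrane. In the nervous system, giant isoforms of Ank2 and Ank3, made by including 1 very large exon, serve in axons, at the axon initial segment and at nodes of Ranvier. Prrc2a has been described as a reader of N6-methyladenosine (m6A), a mark on mRNA whose consensus motif includes GGAC, so GGAC was followed here.

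To show the RNA under the peaks, sequence is given below from the most enriched shared stretch of 6 genes in which the printed bases lay wholly in coding sequence and held GGAC, from GRCm38/mm10, on the strand of the gene and 5′ to 3′, with GGAC in capitals. The Ank3 stretch, under 300 bases, is printed whole, and the longer ones as 101 bases around the GGAC nearest to their middle. The Macf1 window is chr4:123409822-123409922 (minus strand), in coding sequence of a transcript other than the longest one. The Dst window is chr1:34188565-34188665 (plus strand, exon 39), and its GGAC is followed by T. The Plec window is chr15:76186164-76186264 (minus strand, exon 23), the Syne1 window chr10:5229302-5229402 (minus strand, exon 77) and the Syne2 window chr12:75966540-75966640 (plus strand, exon 48). The Ank3 stretch is chr10:69986264-69986533 (plus strand, in the giant exon). Exons are numbered in the longest transcript with a complete coding sequence of each gene.
Macf1: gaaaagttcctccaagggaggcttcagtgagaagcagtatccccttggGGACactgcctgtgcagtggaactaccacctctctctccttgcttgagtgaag
Dst: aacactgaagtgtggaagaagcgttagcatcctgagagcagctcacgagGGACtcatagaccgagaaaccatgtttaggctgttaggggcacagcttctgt
Plec: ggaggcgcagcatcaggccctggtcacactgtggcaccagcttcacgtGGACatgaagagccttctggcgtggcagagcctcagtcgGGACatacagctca
Syne1: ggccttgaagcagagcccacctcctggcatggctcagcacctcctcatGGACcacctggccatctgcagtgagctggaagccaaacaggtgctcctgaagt
Syne2: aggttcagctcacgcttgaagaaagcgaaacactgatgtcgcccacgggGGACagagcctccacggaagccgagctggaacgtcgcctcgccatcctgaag
Ank3: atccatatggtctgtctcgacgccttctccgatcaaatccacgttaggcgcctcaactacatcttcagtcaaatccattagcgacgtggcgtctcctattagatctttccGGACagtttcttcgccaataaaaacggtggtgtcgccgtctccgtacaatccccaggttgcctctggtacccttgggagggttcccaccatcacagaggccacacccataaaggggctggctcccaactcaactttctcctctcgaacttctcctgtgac
Since they were picked for holding GGAC, these stretches show where the motif lies and say nothing of how often it occurs.

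Peaks shared by both replicates were present in exons of 7 of the 10 linker genes, namely Macf1, Dst, Plec, Syne1, Syne2, Ank2 and Ank3. The same held for 12.0% of all 21951 protein-coding genes, and for 53.2% of the 626 whose exons together were at least as long as those of the shortest linker gene, Sptan1 (13362 bp). In replicate 1, 7 of the 10 genes had an exonic peak, beside 16.5% of protein-coding genes, and in replicate 2 it was 8 of 10, beside 21.0%. Per 10 kb of merged exon, the 10 genes together held 2.32 shared peaks, beside 3.19 for the 333 long genes with a shared peak when pooled likewise. The median over genes was 1.71, with 3 linker genes at 0, beside 2.37 for those long genes, all of which have a shared peak by choice. Read counts per library were not in the files used here, so the depth is unknown, and the lack of a peak may reflect low read numbers as well as lack of binding. In whole tissue, few cells expressing a gene and little of its RNA per cell cannot be told apart either.

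**Figure D1:**
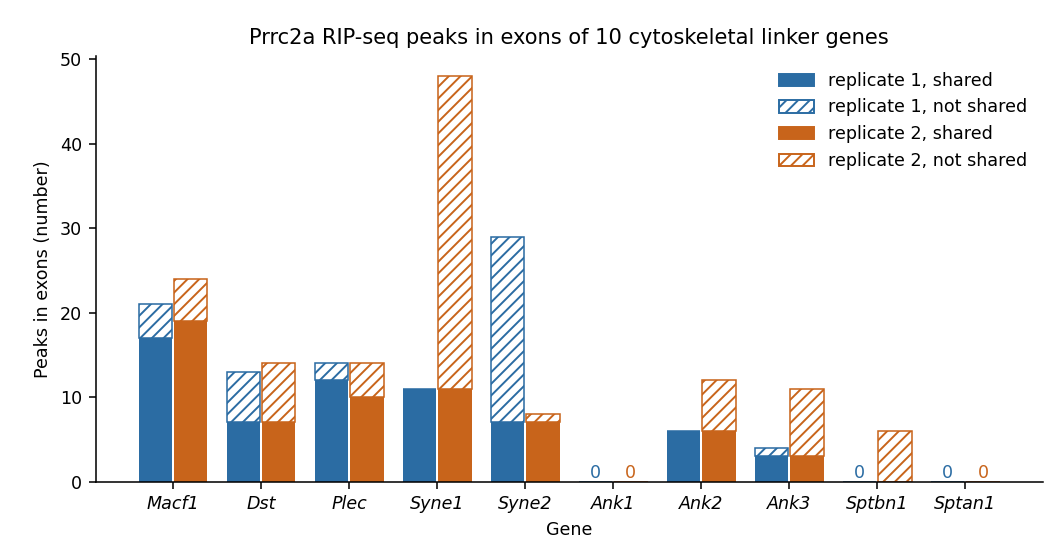
Number of Prrc2a RIP-seq peaks overlapping exons of each linker gene, in replicate 1 (blue) and replicate 2 (orange), with peaks that overlap a peak of the other replicate filled and the others hatched. Macf1, Plec and Dst had like numbers in both replicates, Syne1 had 11 against 48 and Syne2 had 29 against 8.

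Macf1, a spectraplakin that crosslinks microtubules and actin, had the most shared peaks of the linker genes. It held 21 peaks in replicate 1 and 24 in replicate 2, of which 17 replicate 1 peaks and 19 replicate 2 peaks were shared. With 17 shared peaks it ranked 11 among all protein-coding genes, level with 2 others, by a count that makes no allowance for exon length. Per 10 kb of exon it held 5.41 shared peaks. The upper quartile was 5.56 over all protein-coding genes with a shared peak and 4.53 over the 333 long ones. Its peaks lay over 45.7% of its coding bases in replicate 1 and 37.4% in replicate 2 (mean 41.6% ± 5.88, SD, n = 2), and 30.4% were covered in both. The corresponding medians over the 333 long genes with a shared peak were 25.3%, 31.2% and 15.0%, so Macf1 was above them in each. Coverage in both replicates was also above 15.0% in Plec (53.8%), and below it in Dst (6.62%), Syne1 (12.3%), Syne2 (6.91%), Ank2 (10.4%) and Ank3 (1.87%).

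The most enriched shared peak of Macf1 was chr4:123408849-123410830, with a fold enrichment of 4.83 in replicate 1 and a mean of 4.78 over the 2 replicate 2 peaks it met. It lay in exonic sequence that the longest transcript lacks. The largest coding exon of Macf1, exon 36 (5331 bp, chr4:123471007-123476337), was covered entirely by 1 replicate 1 peak (fold enrichment 6.10) and over 51.8% of its length by 4 replicate 2 peaks (highest 5.24). Replicate 1 was thus highest in exon 36 and replicate 2 in the former stretch, where 1 of its peaks reached 6.72. The other shared peaks of Macf1 had mean fold enrichments from 1.42 to 4.78.

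Plec encodes plectin, which links intermediate filaments to actin and to junctions. It had 14 peaks in each replicate, of which 12 of replicate 1 and 10 of replicate 2 were shared, and the highest density of shared peaks among the linker genes (6.63 per 10 kb of exon, beside 5.41 for Macf1). Peaks covered 74.2% of its coding bases in replicate 1 and 62.7% in replicate 2 (68.4% ± 8.16, SD, n = 2), the largest share among the 10 genes in both. Its last exon, exon 33 (7410 bp), was covered over 84.2% and 89.5% of its length by 3 peaks in each replicate, with fold enrichments of at most 2.20 and 3.0. The coverage was thus broad and the enrichment modest: the most enriched shared peak of Plec, chr15:76193109-76193442 over exons 5 and 6, had 1.73 in replicate 1 and 5.24 in replicate 2. At the 5′ end of the gene, peaks overlapped exons of Parp10 as well, and since the lists carry no strand those reads may come from either gene.

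Dst encodes dystonin, a spectraplakin of neurons, muscle and epithelium. It had 13 peaks in replicate 1 and 14 in replicate 2, and 7 of each were shared. Exon 39 (5292 bp, chr1:34187972-34193263), its largest coding exon, held 3 of the 7 shared replicate 1 peaks. It was met by 3 peaks in each replicate and covered over 91.1% and 32.8% of its length. There, the peak chr1:34188052-34188840 was enriched 4.16-fold in replicate 1 and its partner 4.30-fold in replicate 2, so the levels were close while the covered length was not. Over the coding sequence as a whole, coverage was 21.7% and 13.8% (17.8% ± 5.53, SD, n = 2), and 6.62% was covered in both. The highest Dst peak of replicate 1 (4.31, chr1:34121287-34122501) had no partner in replicate 2. The highest of replicate 2 (4.60, chr1:34237081-34237639, at a 5′ UTR) was shared, with 2.60 in its replicate 1 partner.

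**Figure D2:**
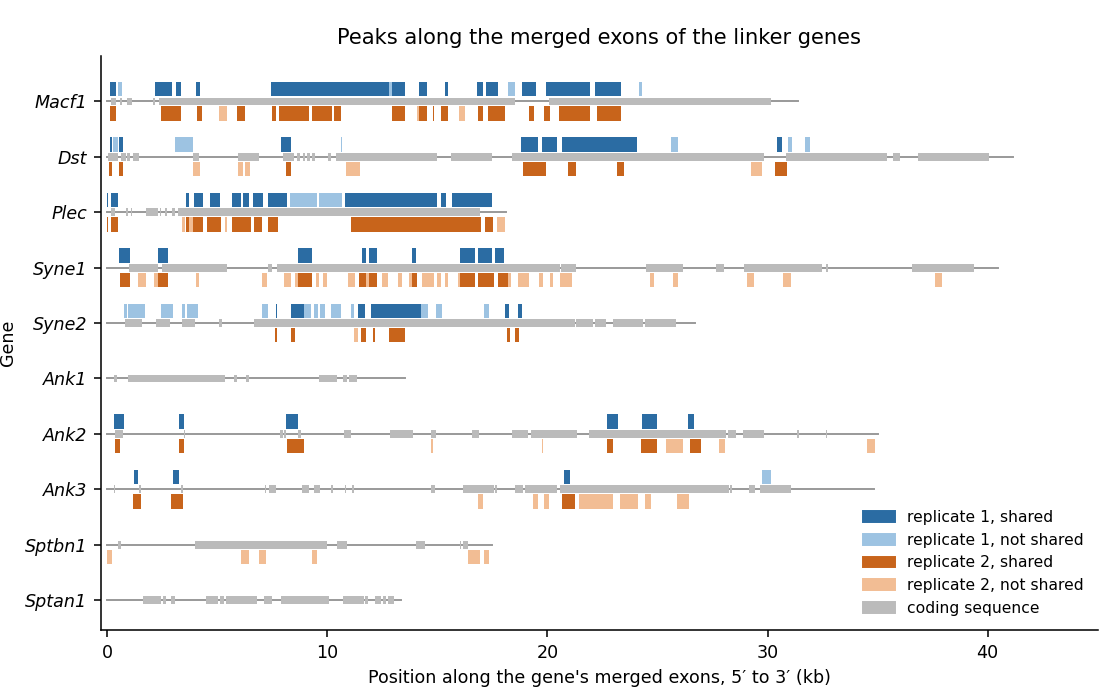
Position of every peak along the merged exons of each linker gene, in kb from the 5′ end, with replicate 1 above the line (blue) and replicate 2 below it (orange), shared peaks dark and other peaks pale, and coding sequence as a grey bar. Long blocks mark the largest exon of Plec in both replicates and those of Macf1 and Dst in replicate 1. The 3′ parts of Syne1 and Syne2 held no replicate 1 peak.

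The nesprins went in opposite directions between the replicates. Syne1, whose protein nesprin-1 joins the nucleus to actin, had 11 peaks in replicate 1 and 48 in replicate 2. All 11 replicate 1 peaks were shared, whereas 37 of the replicate 2 peaks were not. Syne2, its close relative encoding nesprin-2, had 29 peaks in replicate 1 and 8 in replicate 2, and here 7 of the 8 replicate 2 peaks were shared and 22 of the replicate 1 peaks were not. Each gene was thus densely covered in 1 replicate, and in the other the peaks were nearly a subset of those.

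To see how unusual this imbalance was, the share of peaks that came from replicate 1 was taken for the 207 protein-coding genes with at least 20 peaks in both lists together. The median share was 47.6%, and 5% of genes lay below 19.6% and 5% above 67.8%. The share was 18.6% for Syne1, with 8 genes lower, and 78.4% for Syne2, with 3 genes higher. Macf1 (46.7%), Dst (48.1%) and Plec (50%) were near the median. With 2 replicates this is a description of these libraries.

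In Syne1, replicate 1 peaks met 9 of the 146 exons of the longest coding transcript and replicate 2 peaks met 49, which included all 9. Replicate 1 peaks ended at exon 77, and replicate 2 peaks went on to exon 136. Exon 77 is the largest coding exon of Syne1 (2161 bp, chr10:5227554-5229714), and it was covered over 80.8% and 85.3% of its length by 3 peaks in each replicate. The 9 exons met in both had a median length of 310 bp, the 40 met in 1 replicate 173.5 bp, and the 97 met in neither 156 bp. Coding coverage was 12.8% in replicate 1 and 38.1% in replicate 2 (25.5% ± 17.8, SD, n = 2), so the spread between replicates was large beside the mean.

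Fold enrichments in Syne1 were low in replicate 1 (1.40 to 2.46) and ran from 1.45 to 4.93 in replicate 2. The most enriched shared peak was at the 5′ UTR in exon 1, chr10:5550316-5550767, with 2.46 in replicate 1 and 3.30 in replicate 2. The highest Syne1 value of all (4.93, chr10:5249200-5249646, exons 67 and 68) was of replicate 2 alone. The replicate 1 list had no peak over these exons.

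In Syne2, replicate 1 peaks met 34 of 116 exons and replicate 2 peaks 10, with 8 in common, and neither replicate had a peak beyond exon 76. Exon 48, its largest coding exon (2104 bp, chr12:75965650-75967753), was covered entirely in replicate 1 (fold enrichment 6.93) and over 35.5% in replicate 2 (3.51), and this was the most enriched shared peak of the gene. Coding coverage was 37.0% in replicate 1 and 8.74% in replicate 2 (22.9% ± 20.0, SD, n = 2). The median enrichment was 3.76 in both replicates, the highest of the linker genes, and the highest peak (9.21, chr12:75909065-75909455, exon 16) was of replicate 1 alone and overlapped the miRNA gene Mir5101 too.

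Many enrichment values of Syne2 were tied. Of its 8 replicate 2 peaks, all 8 had an enrichment value that at least 10 peaks of that list carried to the last digit, as did 9 of its 29 replicate 1 peaks. Among all exonic peaks of protein-coding genes, such tied values made up 9.94% in replicate 1 and 12.2% in replicate 2, and in Syne1 it was 0 of 11 and 1 of 48. The part of tied values in the difference between the nesprins was not tested.

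**Figure D3:**
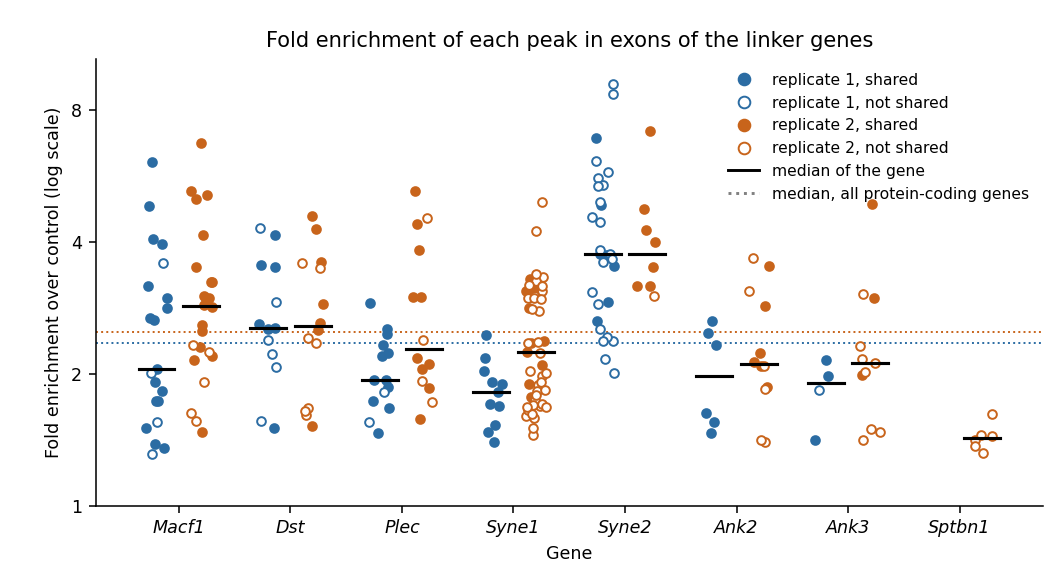
Fold enrichment over the control (log scale) of each exonic peak in the 8 linker genes with a peak, for replicate 1 (blue) and replicate 2 (orange), filled where shared, with black bars at the median of the gene and dotted lines at the median over all protein-coding genes (2.35 and 2.50). Syne2 lies above both lines, its median being 3.76 in either replicate, and Sptbn1 has 6 low peaks in replicate 2 alone.

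Among the ankyrins, Ank2 and Ank3 had shared peaks and Ank1, the ankyrin first known from red blood cells, had none in either list. Ank2, encoding ankyrin-B, had 6 peaks in replicate 1, all shared, and 12 in replicate 2, of which 6 were shared. Its giant exon 38 (6198 bp), which makes up 47.6% of its merged coding sequence, held 3 shared peaks and was covered over 24.1% of its length in replicate 1 and 40.3% in replicate 2. Enrichments there were low, at most 1.63 and 2.13. The most enriched shared peak of Ank2 lay instead at a 5′ UTR, chr3:127161806-127162531, with 2.48 and 3.52, where an exon of Gm16958 overlaps.

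Ank3 encodes ankyrin-G, the organizer of the axon initial segment. It had 4 peaks in replicate 1 and 11 in replicate 2, and 3 were shared. Its giant exon (7674 bp, chr10:69986089-69993762, 53.2% of the merged coding sequence) was covered over 3.52% of its length by 1 peak in replicate 1 and over 50.5% by 5 peaks in replicate 2, with fold enrichments of at most 1.41 and 2.31. That exon lies in a transcript annotated with an incomplete coding sequence and is missing from the longest complete one. The most enriched shared peak was at a 5′ UTR, chr10:69706451-69706718, with 1.98 and 4.89. In both neuronal ankyrins, then, the highest shared enrichment lay at a 5′ UTR and the giant exon carried peaks of low enrichment.

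Peaks inside the gene that touched no exon were most numerous in Ank2 and Ank3, which also have the longest spans of the linker genes (577739 and 628666 bp). There were 12 in replicate 1 and 6 in replicate 2 for Ank2, of which 2 were shared, and 21 and 2 for Ank3, of which none was shared. Their median enrichments (4.64 and 4.08 for Ank2, 4.18 and 4.01 for Ank3) were above those of the exonic peaks of the same genes. Tied values were carried by 9 of the 12 and 5 of the 6 in Ank2 and by 17 of the 21 and 1 of the 2 in Ank3. In replicate 1, Macf1 also had 4 such intronic peaks (median 3.88) and Dst had 1 (1.71). In replicate 2, Syne1 had 2 (median 4.48) and Sptbn1 had 2 (median 4.37). The exonic medians of these genes in the same replicates were 2.06, 2.54, 2.24 and 1.43, so the intronic value was lower in Dst alone. Over the whole lists, 11934 of 18129 peaks in replicate 1 and 16084 of 18671 in replicate 2 lay in protein-coding exons. Replicate 1 thus had more peaks outside such exons in general, as in Ank2 and Ank3. The part of this excess and of gene length in the counts was not tested. No median over the intronic peaks of all genes is given here.

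In their exons, the spectrins stood at the low end. Sptbn1, the beta spectrin that ankyrin-B binds in axons, had no peak in replicate 1 and 6 exonic peaks in replicate 2. Their fold enrichments were 1.32 to 1.62, each under the replicate 2 median for protein-coding genes (2.50). They covered 11.9% of the Sptbn1 coding bases. In the same replicate, 2 more peaks lay inside Sptbn1 but touched no exon, with fold enrichments of 4.06 and 4.69. Sptan1, the alpha spectrin that pairs with it, had no peak in an exon or an intron of either list.

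**Figure D4:**
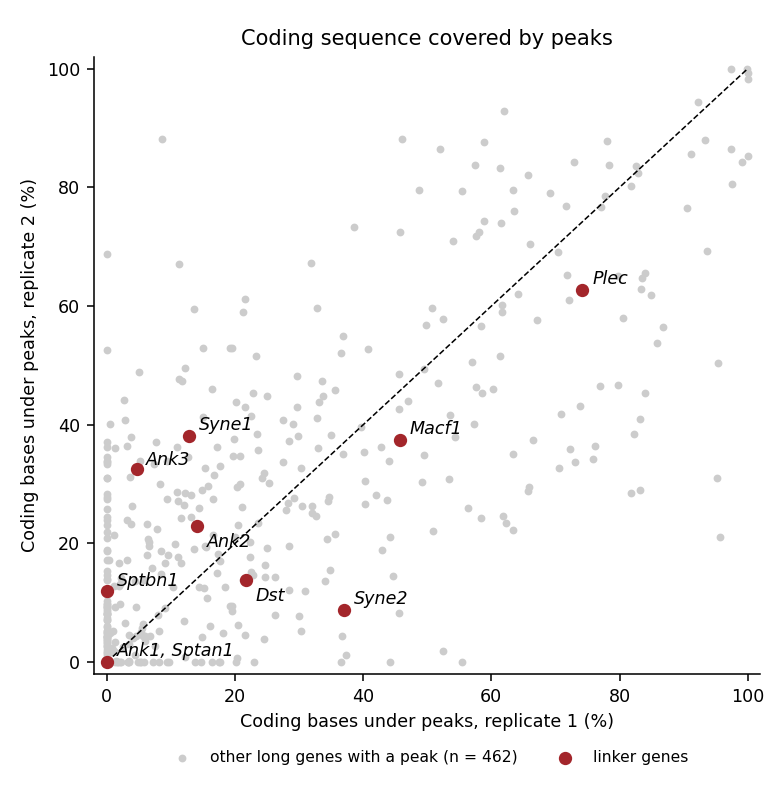
Share of coding bases under peaks in replicate 1 (horizontal, %) and replicate 2 (vertical, %) for the 10 linker genes (red) and 462 other protein-coding genes with exons of at least 13362 bp and a peak (grey), with the dashed line at equal shares. Plec (74.2% and 62.7%) and Macf1 (45.7% and 37.4%) lie near the line, Syne1 and Ank3 above it and Syne2 below it.

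By region, the shared peaks of the linker genes lay mostly in coding sequence. With each peak placed at its midpoint, 48 of the 63 replicate 1 peaks (76.2%) and 43 of the 63 replicate 2 peaks (68.3%) were in coding sequence (72.2% ± 5.61, SD, n = 2), beside 50.7% and 51.9% of shared peaks over all protein-coding genes. In the 3′ UTR there were 0 and 1 of the 63, beside 30.4% in both replicates over all genes. The make-up of the genes differed likewise. In the 7 linker genes with a shared peak, coding sequence was 64.1% of the merged exon bases and the 3′ UTR 8.24%. In all genes with a shared peak they were 37.5% and 36.2%, and in the long ones 37.1% and 28.1%. The part of that make-up in the shares was not tested. The 5′ UTR held 12.7% and 15.9% of the shared peaks, beside 11.5% and 10.6%.

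Peaks lay mostly in the 5′ part of these genes. Along the merged exons, 47 of the 63 shared replicate 1 peaks (74.6%) and 46 of the 63 in replicate 2 (73.0%) lay in the 5′ 50%, beside 59.2% and 57.6% for the long genes. Counting all exonic peaks, it was 73.5% in replicate 1 and 68.6% in replicate 2, beside 59.0% and 56.2% for the long genes. The nesprins gave many of these, with 11 of 11 and 38 of 48 in Syne1 and 24 of 29 and 6 of 8 in Syne2. Macf1 had 14 of 21 and 17 of 24, Dst 8 of 13 and 10 of 14, and Plec 10 of 14 and 11 of 14. Ank2 had 3 of 6 and 5 of 12, Ank3 2 of 4 and 4 of 11, and Sptbn1 3 of 6 in replicate 2. Peaks within 500 bp of an annotated transcript start made up 25.4% and 27.0% of the shared peaks, near the 25.5% and 24.5% over all genes.

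The GGAC motif was counted on the strand of the gene in the exonic bases of each peak. It was present in 46 of the 63 shared replicate 1 peaks (73.0%) and 47 of the 63 in replicate 2 (74.6%), beside 77.8% and 76.7% over all protein-coding genes. The shared peaks of the linker genes had fewer exonic bases (median 295 and 330 bp, beside 376 and 370 bp). Per kb of exonic sequence there were 4.49 and 4.30 GGAC, beside 4.64 and 4.73. The longer motif GGACT was in 34.9% and 30.2%, beside 42.9% and 41.5%. In these shared peaks the values of the linker genes were below those of all genes, but without Macf1 the replicate 1 share with GGAC was 78.3%, above 77.8%. Over all exonic peaks, shared or not, there were 4.64 and 4.58 GGAC per kb, beside 4.59 and 4.70, so the density showed no steady difference. The share of these peaks with GGAC was 67.3% and 65.7%, beside 72.4% and 70.3%. With GGACT it was 30.6% and 26.3%, beside 36.3% and 34.6%. Both shares were thus lower in the linker genes, whose peaks had fewer exonic bases here too (median 262.5 and 228 bp, beside 305 and 282 bp). The giant exon of Ank3 holds 37 GGAC and exon 33 of Plec 44, and the single coding peak shared in the former held 1.

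In enrichment the linker genes were close to the rest. Each of their 63 shared replicate 1 peaks was averaged with its replicate 2 partners. The median of this mean fold enrichment was 2.60, beside 2.58 over all protein-coding genes. Some replicate 2 peaks were partner to more than 1 replicate 1 peak. Values were lower in replicate 1, with a median log2 ratio of replicate 1 over replicate 2 of -0.40, beside -0.25 over all genes. The SD was 0.50 over the 63 peaks, of which 15 were higher in replicate 1. The shift was of like sign in 6 of the 7 genes with shared peaks, from -0.05 in Dst to -0.55 in Plec, and was 0.03 in Syne2. Of the replicate 1 peaks 64.3% were shared and of the replicate 2 peaks 46.0%, beside 61.3% and 47.9%. By gene, the replicate 1 share went from 24.1% in Syne2 to 100% in Syne1 and Ank2.

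Other genes of the same cytoskeletal systems were read from lists of 56 annotated genes, and 12 of them had a shared exonic peak while 25 had no peak. These counts and those of each list stand beside the 12.0% of all protein-coding genes and 53.2% of long ones with a shared peak, and with so few genes a list they are given as a description. Among further actin linkers it was 4 of 10. Dmd, which encodes dystrophin, had 36 peaks in replicate 1 and 22 in replicate 2 with 16 shared, and its paralog Utrn had 15 and 21 with 7 shared. Talins, which join integrins to actin, had few shared peaks (Tln1 1, Tln2 2). Among the membrane proteins that ankyrins hold in place it was 2 of 7, where the potassium channel gene Kcnq3 had 9 peaks in replicate 1, all shared, and 15 in replicate 2, and the sodium channel gene Scn2a had 1 and 13 with 1 shared.

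Of the microtubule partners, 3 of 10 had a shared peak, namely Map1b, Clasp1 and Mapre1. For the other spectrins it was 1 of 4 (Sptb, with 1 peak in replicate 1 and 18 in replicate 2), for the other plakins 1 of 4 (Evpl) and for the membrane skeleton partners 1 of 7 (Epb41l2). None of the 8 genes of the nuclear envelope bridge and lamina, which nesprins contact, and none of the 6 intermediate filament genes, which plectin binds, had a shared peak, which at 12.0% of all protein-coding genes is near the background for lists of this size. These genes are shorter than the linkers, and a count of peaks is no measure of expression. For the same reason the tissue label could not be checked against marker genes: a shared peak was found in 0 of 5 markers of neurons, 0 of 3 of astrocytes, 0 of 3 of oligodendrocytes, 1 of 2 of microglia (Csf1r) and 0 of 2 of blood vessels, and likewise in 0 of 2 of liver and 0 of 2 of muscle.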

How the data were processed

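Trimmed reads were mapped by the authors to the mm10 genome using TopHat, and after keeping reads with a unique, high-quality alignment, each replicate went through MACS2 on its own, without the fragment model and under an FDR threshold. Processing notes give TopHat2 2.0.9 and MACS2 2.0.10, and the methods name later versions. The deposited values are peak positions and a fold enrichment, a linear ratio over a control library that the sources used here do not name. There are no counts, p-values, strands or read totals, so depth and counting error are unknown and the spread over 2 replicates is the error given. The study calls them biological replicates, and the labels do not say which brains each came from.

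Overlaps, regions (the annotation at the peak midpoint, where CDS took precedence over 3′ UTR, then 5′ UTR, other exon and intron), coverage and motifs were computed in Python 3.11.15 with numpy 2.4.6 and pysam 0.24.0 on GENCODE M21 and the GRCm38 sequence (samtools 1.23.1), and figures with matplotlib 3.10.9. Merged exons join all transcripts of a gene. The sequence under the Ank2 peaks is not reported here. All 10 genes were named, with the shared peak of highest mean enrichment in each; from the related lists, genes with a shared peak were named, at most 5 a list. The members and lists were chosen with earlier results of these data known. No comparison of conditions was possible, so no test was run. The functions were tested on simulated data of 200 genes, where 6 of 6 quantities were recovered exactly. Alternatives changed the overlap, the enrichment threshold, the replicate counted, the annotation and the motif.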

Additional observations from a re-analysis of the deposited data

How the results depend on the processing

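Of 85 alternative values, 55 kept within 1.5 times the count or within the spread of the replicates, and 30 moved. For density and the shares in CDS and with GGAC, that spread was taken over all exonic peaks, shared or not. With 50% overlap the count of shared peaks moved (63 to 38) while their density (2.32 to 1.40 per 10 kb) did not. The tally thus depends on the yardstick. With 1 replicate alone, the linker genes had 98 to 137 exonic peaks in place of 63 shared, which is 3.60 to 5.03 per 10 kb, and GGAC was in 65.7% to 67.3%. Overlap of 50% of both peaks left 38 shared peaks, 38.8% of replicate 1 peaks, with GGAC in 81.6%. Requiring 4-fold enrichment or more in each replicate left 3 genes and 5 peaks (0.184 per 10 kb, median 4.81, 29.4% shared, 100% in CDS, 60% with GGAC). Counting replicate 2 peaks gave 68.3% in CDS, 46.0% shared and GGAC in 74.6%. Whole gene spans gave 47.8% shared, 0.201 per 10 kb and GGAC in 78.5%, and 1 gene per peak gave GGAC in 74.2%. Placing peaks by the region with the most bases gave 65.1% in CDS. GGACT was in 34.9%, and GGAC within 50 bp of the midpoint in 33.3%. Leaving out a gene was added after seeing the data: without Syne2, 81.2% of replicate 1 peaks were shared and GGAC was in 76.8%; without Macf1 or Syne1, GGAC was in 78.3% or 69.2%. The cause of these moves was not tested. Depth is unknown, so peaks absent from 1 replicate may be missed there.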
